A study of Mus musculus with 4 samples.

Results

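TCF1 binding was compared between immature γδ thymocytes sorted for high or for low activity of Sox13. The sites compared were the 10000 best-scored autosomal peaks of each population, out of 40156 autosomal peaks in the Sox13hi list and 10394 in the Sox13lo list. A peak counted as shared where it overlapped any autosomal peak of the whole other list by at least 1 bp, and as restricted where it did not. This gave 5220 shared and 4780 restricted sites of Sox13hi cells, and 6184 shared and 3816 restricted sites of Sox13lo cells. The shared sites of both lists are largely the same places counted from either side.

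TCF1, the product of Tcf7, binds DNA through a high mobility group box, opens and holds regulatory sites during T cell development and can bring β-catenin or Groucho-type corepressors to them. SOX13 carries a related DNA-binding box and is known as an early lineage factor of γδ thymocytes, in particular of those that go on to make IL-17. Immature γδ cells with high Sox13 are the source of many of these IL-17-making cells, while cells with low Sox13 include precursors of other γδ subsets.

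Both γδ samples were sorted for the γδ receptor, for CD24, a marker of immature thymocytes, and for high (Sox13hi) or for low to absent (Sox13lo) cyan fluorescence, and both came from C57BL/6 mice of genotype TCRbeta KO.Sox13 ECFP KI/+. All γδ cells thus lacked the TCRβ chain and carried the fluorescent reporter in 1 copy of Sox13, which also served as the sorting signal. CD4 CD8 double-positive (DP) thymocytes, an αβ-lineage stage, were taken from C57BL/6 animals of wild-type genotype and serve here as a readout that the choice of sites did not use. For the animals, the sources used here give neither age nor number. Each population had 1 library, so there is no spread between replicates and no test between populations. A peak list gives no expression, so the sorted cell types were not checked against marker genes such as Sox13. The deposited lists name no genes, and no gene positions or sequence on their build, mm9, were used here, so sites are named by position and by chromosome band. Intervals in parentheses are 95% Wilson intervals of a share. They cover counting error alone, and neighbouring peaks are not independent. Read depth is unknown.

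The 10000 best peaks were 24.9% of the autosomal Sox13hi list and 96.2% of the autosomal Sox13lo list. In the Sox13hi list the last peak kept and the first left out had the same score, 11.8, a value held by 61 peaks. In the Sox13lo list both had a score of 8.89, held by 11 peaks. Scores are the authors' own, on a scale that differs between lists, and are used to rank peaks within a list. The median kept peak was 200 bp wide in Sox13hi cells and 350 bp wide in Sox13lo cells.

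The strongest TCF1 sites of Sox13hi cells were nearly all called in Sox13lo cells as well, and the converse was less complete. Of the 10000 Sox13hi peaks, 52.2% (51.2 to 53.2) were shared, where the whole autosomal list had 16.8% shared. Of the 10000 Sox13lo peaks, 61.8% (60.9 to 62.8) were shared, where the whole autosomal list had 59.9% shared. These shares follow from the rule that sorted the sites and are given as a description. With the other list limited to its own best 10000 peaks, the values were 52.1% and 49.4%, which count nearly the same overlaps from both sides.

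Sharing fell along both lists in different ways. Among the 1000 best Sox13hi peaks 998 were shared, and 2 were restricted. The share was 89.3% (87.2 to 91.1) at ranks 2001 to 3000, 49.0% (45.9 to 52.1) at ranks 4001 to 5000 and 15.4% (13.3 to 17.8) at ranks 9001 to 10000. Among the 1000 best Sox13lo peaks 938 were shared and 62 restricted. There the share fell more slowly, to 79.5% (76.9 to 81.9) at ranks 2001 to 3000, 68.7% (65.8 to 71.5) at ranks 4001 to 5000 and 26.9% (24.2 to 29.7) at ranks 9001 to 10000. The Sox13lo peaks were set against 40156 Sox13hi peaks, and the Sox13hi peaks against 10394 Sox13lo peaks. A longer list offers more overlaps, and the part of list length in the slower fall was not tested.

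**Figure D1:**
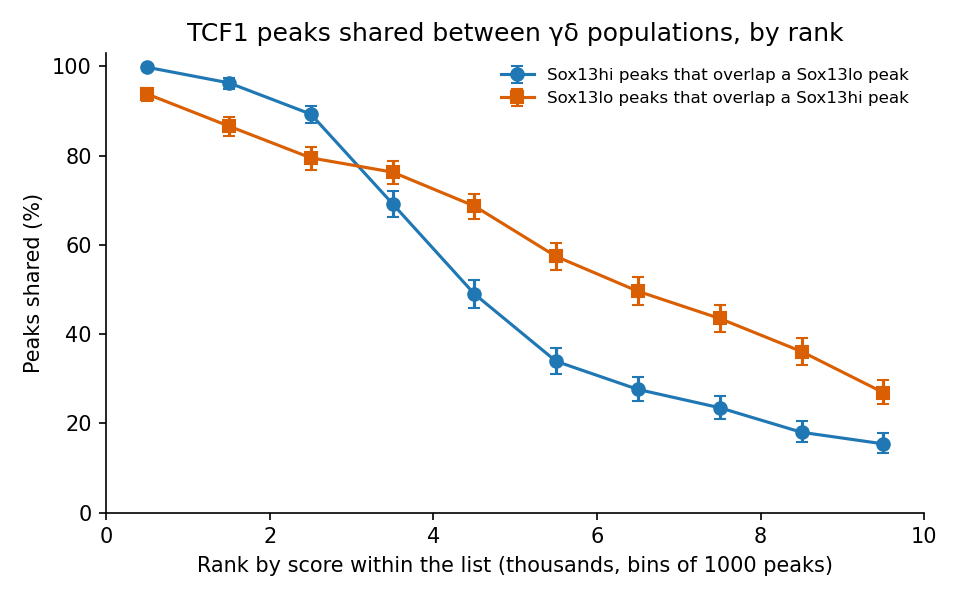
Share of peaks (%) that overlap a peak of the whole other list, against rank by score in bins of 1000 peaks, for the Sox13hi list (circles) and the Sox13lo list (squares). Bars are 95% Wilson intervals. The Sox13hi curve starts at 99.8% and falls below the Sox13lo curve from ranks 3001 to 4000 on. The list that the Sox13lo peaks are set against is the longer.

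Shared Sox13hi peaks mostly lay inside wider Sox13lo peaks. Shared peaks had a median width of 250 bp in Sox13hi and 450 bp in Sox13lo cells. These sites were chosen for overlap, so the rule and the widths favour closeness, and their part in it was not tested. Of the 5220 shared Sox13hi peaks, 95.7% lay wholly inside a Sox13lo peak. Midpoints were a median of 25 bp apart, and 79.0% of pairs had midpoints within 100 bp. With a reciprocal overlap of 50%, 36.4% of the 10000 Sox13hi peaks were shared, against 52.2% with the rule used. The shared Sox13hi peaks fell in 4954 different Sox13lo peaks. A Sox13lo peak sometimes covered several narrow Sox13hi peaks: 506 of the 6184 shared Sox13lo peaks, or 8.18%, held 2 or more Sox13hi peaks, and 3 was the most in any of them.

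The order of the sites was retained in part. Over the 5220 shared sites, which come from 1 library on each side and are no replicates, the Spearman rho between ranks was 0.42. Of the 1000 best Sox13hi sites, 460 were also among the 1000 best of Sox13lo cells, 489 stood at ranks 1001 to 5000 there and 49 at ranks 5001 to 10000. Of the 1000 best Sox13lo sites, 455 were among the 1000 best of Sox13hi cells, 387 at ranks 1001 to 5000, 57 at ranks 5001 to 10000 and 39 below rank 10000.

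**Figure D2:**
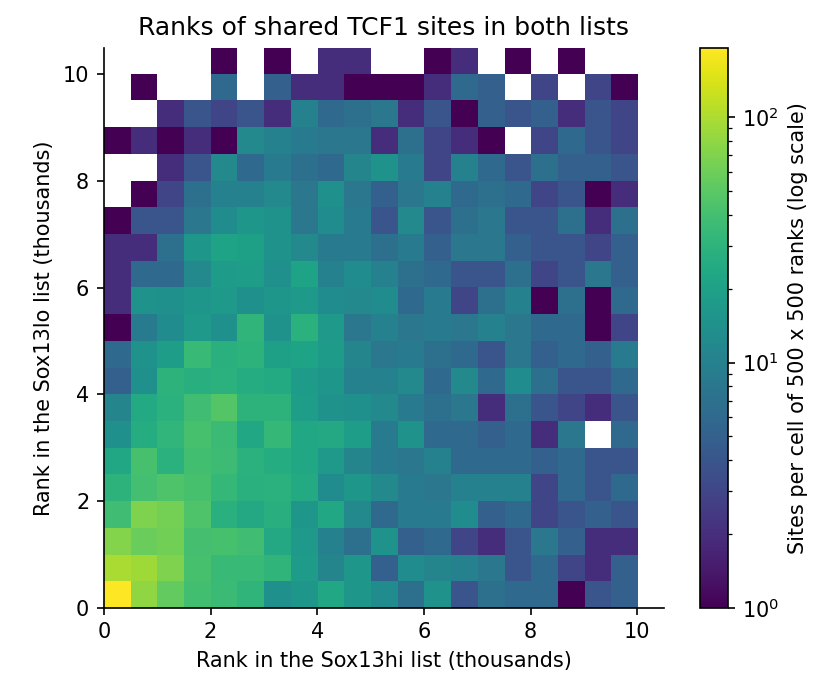
Number of shared sites (colour, log scale) by rank in the Sox13hi list (x axis, in units of 1000) and rank of the overlapping Sox13lo peak (y axis, in units of 1000), in cells of 500 by 500 ranks. Sites gather at the lower left, the best ranks of both lists, and spread widely above it, as the rho of 0.42 states.

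Outside the few extreme scores, the best shared sites were mostly broad and overlapped DP peaks too. Scores over 20 times the median of the list were counted apart. They were held by 14 shared Sox13hi peaks, 7 shared Sox13lo peaks and 2 Sox13lo-restricted peaks. The next-best shared Sox13hi site lay on chromosome 18 at 77098051 to 77099200, in band qE3, with a score of 150 in Sox13hi cells (rank 15) and 248 in Sox13lo cells (rank 31). It was followed by sites on chromosome 16 at 91534901 to 91535150 in band qC3.3, with scores of 146 (rank 16) and 263 (rank 26), and at 18582001 to 18582700 in band qA3, with scores of 145 (rank 17) and 195 (rank 76). Of the 10 best of this kind, 9 overlapped a DP peak. The site without a DP peak was on chromosome 3 at 79090401 to 79091400 in band qE3, at rank 23 in Sox13hi and rank 872 in Sox13lo cells.

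Counted from the Sox13lo side, the best shared sites included a peak on chromosome 5 at 147072451 to 147073100 in band qG3, with a score of 707 in Sox13lo cells (rank 10) and 95.7 in Sox13hi cells (rank 50). A 1000 bp peak on chromosome 7 at 17396101 to 17397100 in band qA2 had scores of 388 (rank 12) and 78.7 (rank 114). Some of these sites stood much lower in Sox13hi cells. The peak on chromosome 13 at 60277151 to 60278700 in band qB2 was at rank 19 in Sox13lo and rank 2328 in Sox13hi cells, and the peak on chromosome 8 at 72405101 to 72406650 in band qB3.3 was at ranks 14 and 1414.

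Some shared sites among the 1000 best of one list stood far down the other, in both directions. The sites given here were chosen for their low rank in the other list after their ranks were seen, and shared sites outside the 1000 best were not searched. A site on chromosome 19 at 47327451 to 47328350 in band qC3 was at rank 50 in Sox13lo cells with a score of 223, and at rank 25833 of the Sox13hi list with a score of 6.29. A site on chromosome 7 at 6083851 to 6084350 in band qA1 was at rank 400 in Sox13lo and 32595 in Sox13hi cells. In the other direction, a site on chromosome 6 at 22355751 to 22356000 in band qA3.1 was at rank 449 in Sox13hi cells with a score of 55.0, and at rank 8501 in Sox13lo cells with a score of 17.0. A site on chromosome 5 at 79387801 to 79388100 in band qD was at rank 997 in Sox13hi and rank 9924 in Sox13lo cells. Lists of different length set how low a rank can go, so the sizes of these drops are not comparable between the directions.

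Restricted sites had lower median scores than shared ones in both lists. The median score of the Sox13hi-restricted sites was 14.4, with quartiles of 12.9 and 16.8 and a highest score of 66.5, against a median of 25.7 and quartiles of 18.1 and 37.9 for the shared Sox13hi sites. They included 72 sites at ranks 1 to 2500 and 892 at ranks 2501 to 5000. Their median width was 200 bp, against 250 bp for shared sites. The Sox13lo-restricted sites had a median score of 25.0, with quartiles of 16.0 and 36.8, against 46.9 for shared Sox13lo sites, and median widths of 300 and 450 bp. The overlap rule favours wide peaks and each list has a lowest score of its own, so absence from a list does not show absence of TCF1.

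The best Sox13hi-restricted site lay on chromosome 8 at 67792901 to 67793100, in the dark band qB3.1, at rank 224 with a score of 66.5. The nearest Sox13lo peak was 161 kb away. The next, on chromosome 10 at 104590751 to 104591200 in band qD1, was at rank 968 with a score of 42.5, overlapped a DP peak and lay 87.0 kb from the nearest Sox13lo peak. A site on chromosome 15 at 22920101 to 22920350 in band qA2, at rank 1286, was the most isolated of the 10 best, 2374 kb from any Sox13lo peak. The least isolated, on chromosome 10 at 90633551 to 90633900 in band qC2, was at rank 1294 and lay 0.15 kb from a Sox13lo peak. The 10 best stood at ranks 224 to 1393, 3 of them overlapped a DP peak, and their median distance to a Sox13lo peak was 149 kb.

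The best Sox13lo-restricted sites were broad, high in their list and mostly overlapped a DP peak. These traits were not particular to them. Of the 10 best shared Sox13lo sites 9 overlapped a DP peak. At ranks 1 to 2500 the median width was 500 bp for Sox13lo-restricted and 650 bp for shared Sox13lo sites. With the 2 extreme scores apart, the first restricted site was on chromosome 16 at 31162601 to 31163350 in band qB2, at rank 24 with a score of 275, 41.8 kb from the nearest Sox13hi peak. The second, on chromosome 19 at 7497101 to 7498150 in band qA, was at rank 65. It lay 0.4 kb from a Sox13hi peak, the shortest distance of the 10 best. The next 2 sites given here are the farthest of the 10. A 1950 bp site on chromosome 17 at 74434001 to 74435950 in band qE2 was at rank 205, 55.4 kb from a Sox13hi peak. A site on chromosome 16 at 92605801 to 92606450 in band qC4 was at rank 162, 58.6 kb away. The 10 best Sox13lo-restricted sites stood at ranks 24 to 225, 9 of them overlapped a DP peak, and their median distance to a Sox13hi peak was 8.32 kb. The exception without a DP peak was on chromosome 8 at 72854651 to 72855350 in band qB3.3, at rank 134, and lay 0.65 kb from a Sox13hi peak.

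Most restricted sites lay over 1 kb from any peak of the other list. Of the 4780 Sox13hi-restricted sites, 46 (0.962%) lay within 1 kb of a Sox13lo peak and 5.86% within 10 kb, with a median distance of 194 kb. Of the 3816 Sox13lo-restricted sites, 452 (11.8%) lay within 1 kb of a Sox13hi peak and 36.0% within 10 kb, with a median of 18.3 kb. The Sox13hi list is the longer, which shortens the distances to it. With the other list limited to its best 10000 peaks, which made 5057 Sox13lo and 4791 Sox13hi sites restricted, 19.3% of the former and 5.57% of the latter lay within 10 kb, with medians of 58.8 and 214 kb.

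**Figure D3:**
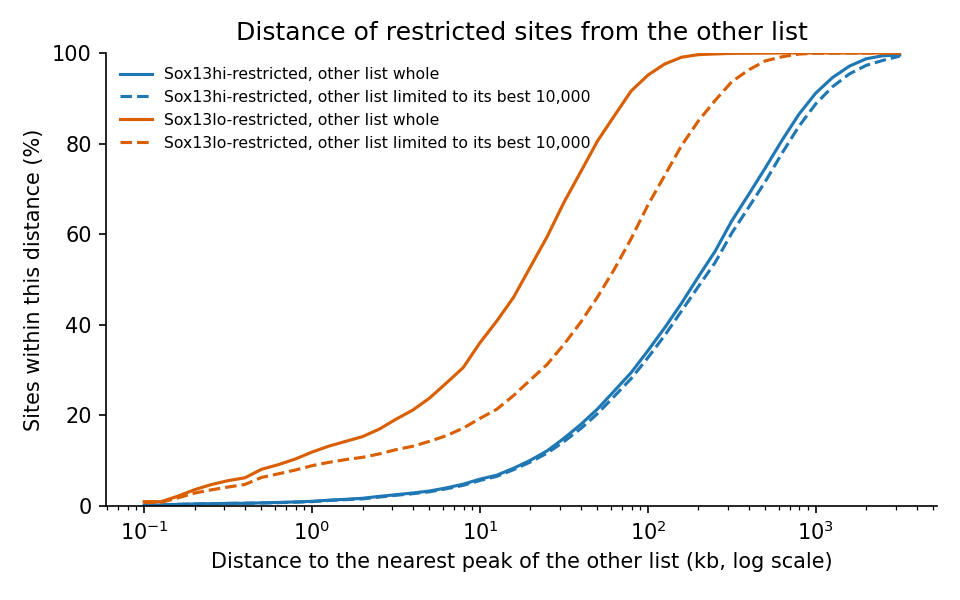
Cumulative share of restricted sites (%) within a given distance (kb, log scale) of the nearest peak of the other list, whole (solid lines) or limited to its best 10,000 peaks (dashed lines). The Sox13lo-restricted curves lie to the left of the Sox13hi-restricted ones in both settings, with medians of 18.3 and 58.8 kb against 194 and 214 kb.

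Restricted sites of the γδ populations differed in overlap with the DP list, and so did the whole lists. Of the shared Sox13hi sites 65.1% (63.8 to 66.4) overlapped a DP peak, and of the Sox13hi-restricted sites 6.36% (5.70 to 7.09), or 304 of 4780. Over the whole autosomal Sox13hi list the share was 14.3%. Of the shared Sox13lo sites 64.2% (63.0 to 65.4) overlapped a DP peak, and of the Sox13lo-restricted sites 31.6% (30.2 to 33.1), or 1207 of 3816. Over the whole autosomal Sox13lo list the share was 50.2%. In percentage points, the gap between the whole lists was thus larger than that between the restricted sites. The share of Sox13lo-restricted sites was above that of Sox13hi-restricted sites on 19 of 19 autosomes, which are not independent samples. It ran from 26.2% on chromosome 17 to 37.5% on chromosome 2, while that of Sox13hi-restricted sites ran from 3.92% on chromosome 19 to 9.33% on chromosome 4, so the ranges did not overlap.

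The difference between the restricted sites was present at every level of rank examined, where Sox13lo-restricted sites were also the wider. Median widths of Sox13hi- and Sox13lo-restricted sites were 250 and 500 bp at ranks 1 to 2500, and 150 and 250 bp at ranks 7501 to 10000. At ranks 1 to 2500, 10 of 72 Sox13hi-restricted sites overlapped a DP peak, or 13.9% (7.72 to 23.7), against 187 of 281 Sox13lo-restricted sites, or 66.5% (60.8 to 71.8). At ranks 7501 to 10000 the shares were 5.52% (4.61 to 6.60) and 19.4% (17.5 to 21.3). Shared Sox13hi sites at these low ranks still overlapped a DP peak in 50.1% (45.5 to 54.7) of cases. Among sites of equal width the Sox13lo-restricted share was also the higher at each of 4 widths. At 150 bp, 2.31% (1.69 to 3.14) of Sox13hi-restricted and 10% (5.68 to 17.0) of Sox13lo-restricted sites overlapped a DP peak, and at 200 bp 7.52% (6.49 to 8.70) and 12.5% (10.2 to 15.1). At 250 bp the shares were 10.9% (8.68 to 13.7) and 19.8% (17.5 to 22.3), and at 300 bp 16.3% (10.9 to 23.6) and 37.5% (34.2 to 40.8). The gap in percentage points at each of these widths was below that over all restricted sites, and the part of width in it was not tested. Shared and restricted Sox13lo sites were also closer at equal width than over all widths. Their shares were 18.7% (13.9 to 24.7) and 12.5% at 200 bp, and 29.9% (26.1 to 34.0) and 19.8% at 250 bp. At 300 bp they were 41.2% (37.9 to 44.5) and 37.5% (34.2 to 40.8), with intervals that overlapped.

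**Figure D4:**
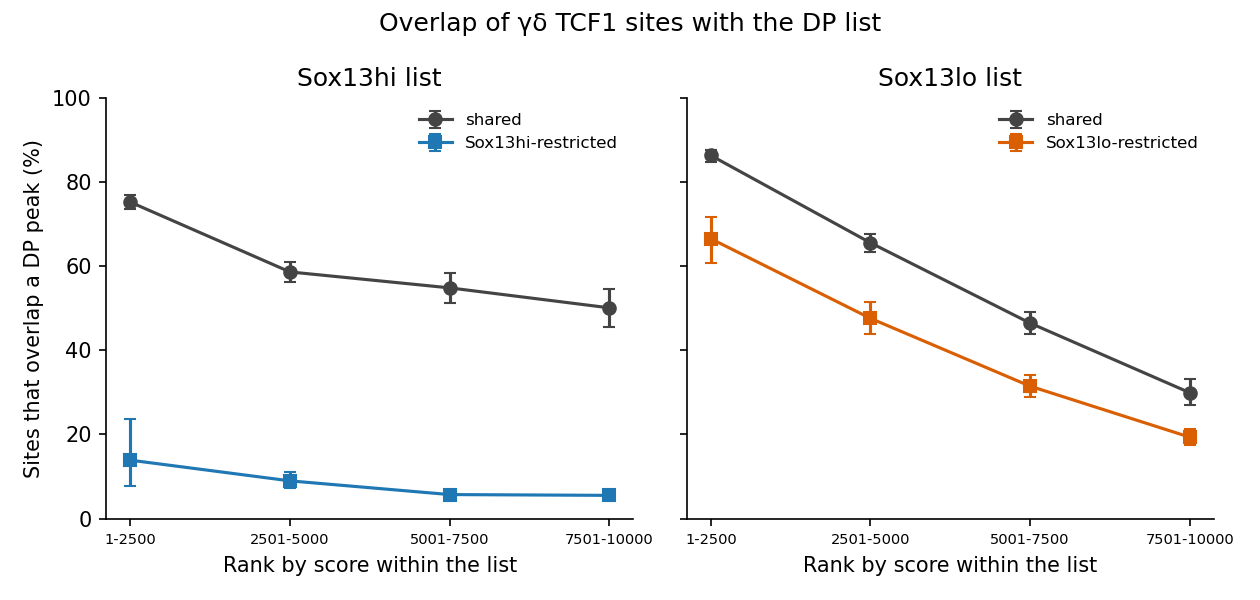
Share of sites (%) that overlap a DP peak, in 4 ranges of rank by score within the Sox13hi list (left) and the Sox13lo list (right), for shared sites (circles) and restricted sites (squares). Bars are 95% Wilson intervals. Sox13hi-restricted sites stay at 5.52 to 13.9%, while Sox13lo-restricted sites run from 66.5% down to 19.4%, below the shared sites in each range.

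The DP peaks met by the classes also differed in rank within the DP list of 85669 autosomal peaks. Where a Sox13hi-restricted site overlapped a DP peak, that peak had a median rank of 48554 and 5.26% were among the best 10% of the DP list. For Sox13lo-restricted sites the median rank was 11165 and 45.0% were among the best 10%, against 53.2% of shared Sox13lo sites and 57.1% of shared Sox13hi sites. Against the 10000 best DP peaks alone, 22 Sox13hi-restricted sites, or 0.460% (0.304 to 0.696), and 578 Sox13lo-restricted sites, or 15.1% (14.0 to 16.3), overlapped a DP peak. The share of shared Sox13hi sites was 38.9% (37.5 to 40.2). Shares of the whole γδ lists at this limit are not given here, so the contrast cannot be assigned to the restricted classes. The γδ and DP cells came from mice of different genotype, so lineage and genotype cannot be told apart in these shares.

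Chromosome bands gave an annotation on mm9 that neither the rule nor the scores used. Giemsa-light bands are known to be rich in genes and to replicate early, while the darkest bands are poor in genes and often lie at the nuclear edge. Light bands hold 41.2% of autosomal bases, and the darkest bands hold 31.2%. Of the shared sites 49.0% (47.6 to 50.3) of those counted as Sox13hi peaks and 48.2% (47.0 to 49.5) of those counted as Sox13lo peaks lay in light bands. The Sox13lo-restricted sites were placed alike, with 47.4% (45.9 to 49.0) in light bands and 20.5% (19.2 to 21.8) in the darkest. The Sox13hi-restricted sites were not: 38.5% (37.1 to 39.8) lay in light bands, below the share of bases, and 34.3% (32.9 to 35.6) in the darkest, above it. Over the whole autosomal lists 41.4% of Sox13hi and 47.8% of Sox13lo peaks lay in light bands.

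Restricted and shared Sox13hi sites differed in placement at equal rank and at equal width too. At ranks 7501 to 10000, 37.2% (35.1 to 39.3) of them and 46.8% (42.3 to 51.4) of the shared Sox13hi sites lay in light bands. Among Sox13hi sites 150 bp wide, the values were 37.7% (35.5 to 40.1) for restricted and 51.0% (46.8 to 55.3) for shared sites. At 250 bp they were 42.1% (38.2 to 46.1) and 49.6% (46.7 to 52.5), so restricted sites of this width were not below the 41.2% of bases. By chromosome, the light-band share of shared Sox13hi sites was above that of Sox13hi-restricted sites on 16 of 19 autosomes, and the share of Sox13lo-restricted sites was above that of Sox13hi-restricted ones on 15. Within the Sox13lo list, shared sites were above restricted ones on 10 of 19. Against the bases of the same chromosome, the light-band share was lower for Sox13hi-restricted sites on 13 autosomes and higher for Sox13lo-restricted sites on 15.

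**Figure D5:**
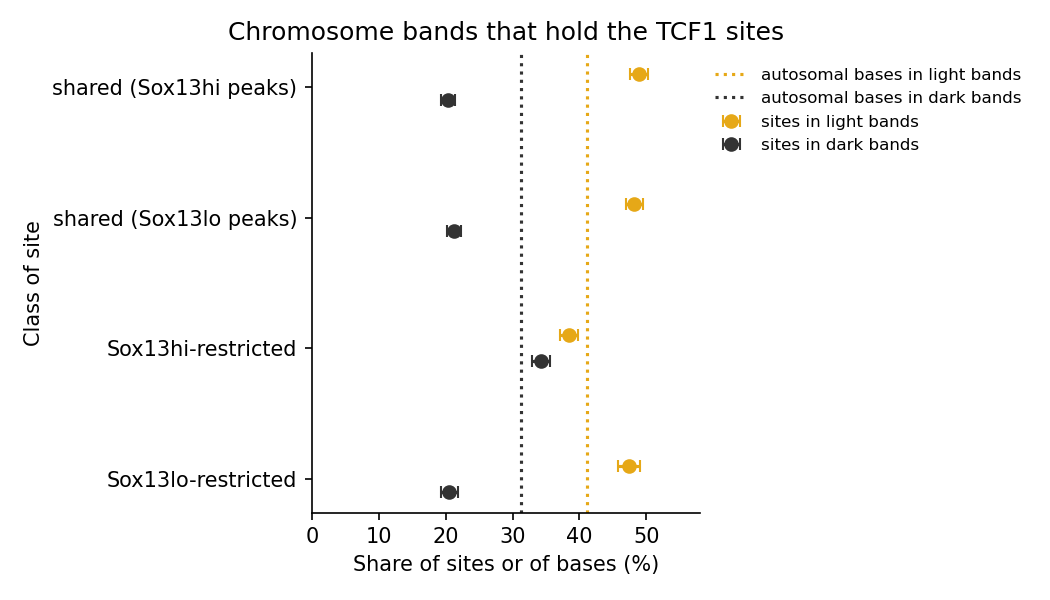
Share of sites (%) in Giemsa-light bands (yellow points) and in the darkest bands (black points) for each class, with 95% Wilson intervals. Dotted lines give the share of autosomal bases in these bands, 41.2 and 31.2%. The Sox13hi-restricted sites lie on the other side of both lines from the remaining classes.

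Single bands ran from almost wholly restricted to almost wholly shared. The share of Sox13hi sites that were shared was compared over the 43 bands with at least 50 of them. It was lowest in band qD1 of chromosome 10, a dark band of 12.8 Mb, where 5 of 58 Sox13hi sites, or 8.62%, were shared. It was 22.6% in band qC1.1 of chromosome 1 and 25.9% in band qD3 of chromosome 14, which is a light band. It was highest in band qE2 of chromosome 4, with 75 of 82 sites or 91.5%, and in band qA3.3 of chromosome 17, with 64 of 71 or 90.1%. The median was 76.3% over 23 light bands and 35.2% over 13 of the darkest, and the ranges overlapped, at 25.9 to 91.5% and 8.62 to 69.0%. The limit of 50 counts shared sites too, so it favours bands rich in them. Over all bands the contrast was smaller. Light bands held 2556 shared and 1838 restricted Sox13hi sites, and the darkest bands held 1062 and 1638. Whole chromosomes ran from 38.0% on chromosome 14 to 70.6% on chromosome 11. For Sox13lo sites the range over chromosomes was narrower, from 58.1% on chromosome 5 to 65.8% on chromosome 12.

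At a scale of 1 Mb, the windows with the most Sox13lo-restricted sites also held many shared sites. Over the 2482 autosomal windows of 1 Mb, the most Sox13lo-restricted sites, 24, lay on chromosome 10 between 80 and 81 Mb, beside 31 shared and 3 Sox13hi-restricted sites. The next windows were chromosome 10 from 79 to 80 Mb, with 19 Sox13lo-restricted, 28 shared and 0 Sox13hi-restricted sites, and chromosome 8 from 73 to 74 Mb, with 17, 22 and 0. These 3 windows also led the counts of shared Sox13lo sites. The other windows of the 5 highest, chromosome 7 from 28 to 29 Mb and from 20 to 21 Mb, held 14 and 13 Sox13lo-restricted sites beside 11 and 9 shared ones and were not among the 5 with the most shared sites. No measure over all windows was computed. Sox13hi-restricted sites were most frequent in other windows, with 12 on chromosome 1 between 48 and 49 Mb and 10 each on chromosome 5 between 69 and 70 Mb and on chromosome 15 between 47 and 48 Mb. The windows on chromosomes 1 and 15 held no shared or Sox13lo-restricted site, and the window on chromosome 5 held 1 shared peak of each list and 1 Sox13lo-restricted site. Windows with 9 Sox13hi-restricted sites followed, among them chromosome 1 from 47 to 48 Mb, with 1 Sox13lo-restricted site, and chromosome 1 from 111 to 112 Mb, with none.

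Sox13hi-restricted sites had the lowest variance of counts over the windows, relative to the mean, of the classes. They occurred in 79.0% of the windows, with at most 12 in one, and the variance of the count was 1.47 times its mean. Sox13lo-restricted sites were fewer, occurred in 62.0% of windows and had a ratio of 2.69, and the ratio was 3.36 for shared Sox13hi and 3.64 for shared Sox13lo sites. A site of the same class lay within 10 kb of 4.92% of Sox13hi-restricted sites, 14.3% of Sox13lo-restricted sites, 23.1% of shared Sox13hi sites and 19.2% of shared Sox13lo sites. The classes differ in number of sites, and the part of that number in these values was not tested. The 5220 shared Sox13hi peaks overlapped 4954 different Sox13lo peaks. Some of them are thus neighbours at the same Sox13lo peak, and these were not counted apart.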

How the data were processed

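TCF1 was immunoprecipitated from sorted cells of each population after fixation with 1% formaldehyde, and libraries of 300 to 500 bp fragments were amplified for 17 cycles, per the labels' protocols. The authors deposited a peak list per library with a score per peak, on mm9 per the submitters' processing notes. How reads were aligned, how peaks and scores were called and whether the input was used is not given in the sources used here, and the input library was not analysed here. Ends name the last base counted from 0, and positions are printed 1-based.

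Autosomal peaks were ranked by score, with ties ordered by position, and overlaps were computed in Python 3.11.15 with numpy 2.4.6 and pandas 2.3.3, checked against bedtools 2.31.1 and tested on simulated data. Intervals came from statsmodels 0.14.6 and plots from matplotlib 3.10.9. Bands of mm9 came from circlize 0.4.16 and chromosome lengths from GenomeInfoDb 1.38.1, and a site belongs to the band of its midpoint. The members and lists were chosen with earlier results of these data known. Shares of promoters, listed genes and the named-gene rule needed gene positions on mm9. The gene table used here is on GRCm38, so these were not run. The rule was applied to sites: the 10 best of each class without scores over 20 times the list median, and the 5 windows of 1 Mb with the most sites. Sites were also compared on chromosome bands, at equal width and by distance, which was chosen after seeing the data.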

Additional observations from a re-analysis of the deposited data

How the results depend on the processing

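Of 48 alternative values, 25 fell inside the 95% counting interval of the reported value and 23 outside. In the order Sox13hi peaks shared and Sox13lo peaks shared, a reciprocal overlap of 50% gave 36.4 and 39.8%, midpoints within 200 bp gave 48.3 and 60.0%, and the best 5000 peaks gave 80.7 and 81.0%. Peaks resized to 500 bp moved the Sox13lo share to 63.2%, and the other list limited to its best 10000 moved it to 49.4%. For overlap with DP, in the order shared, Sox13hi-restricted and Sox13lo-restricted, resizing gave 69.1, 8.52 and 33.6%, the best 5000 peaks 68.6, 9.34 and 53.2%, a reciprocal overlap of 50% with DP 46.4, 4.33 and 25.7%, and the best 10000 DP peaks 38.9, 0.460 and 15.1%. The other list limited to its best 10000 gave 35.8% for Sox13lo-restricted sites. With the best 5000 peaks the light-band shares of Sox13hi- and Sox13lo-restricted sites were 37.0 and 49.6%.

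The Sox13lo-restricted share was above the Sox13hi-restricted one in 7 of 7 alternatives for DP, at 3.94 to 32.9 times, and in 5 of 5 for light bands. The comparison at equal width was not among these alternatives. For DP it gave 12.5 against 7.52% at 200 bp, 19.8 against 10.9% at 250 bp and 37.5 against 16.3% at 300 bp. These pairs are less than 3.94 times apart, unlike 10 against 2.31% at 150 bp. A reciprocal criterion and a shorter list lower shares by construction. Fewer, better peaks raise sharing, as the ranks show, and for other moves the cause was not tested. The band alternatives, the distance limit of 1 kb and, for DP, the limit on the other list were chosen after seeing the data. Promoter shares and their alternatives were left out for want of gene positions on mm9. No paired analysis was possible because the labels number no replicates. The lists give no read depth, so its limit on weak sites is unknown.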

Other observations

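On the X chromosome, which the comparison left out, 141 of 282 Sox13hi peaks with a score at or above that of the last autosomal peak kept were shared with the Sox13lo list, an interval of 44.2 to 55.8%. Of the 361 Sox13lo peaks on X chosen in the same way, 51.2% (46.1 to 56.4) were shared with the Sox13hi list. On the Y chromosome 83.3% (75.4 to 89.1) of 114 Sox13hi peaks and 94.0% (87.5 to 97.2) of 100 Sox13lo peaks were shared. These peaks were not checked for repeated sequence.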
